A study of Drosophila melanogaster with 18 samples.

Results

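Gene expression around dawn was compared in fly heads (Drosophila melanogaster, the wild-type strain Canton-S), by setting heads collected 3 h after lights on (ZT3) against heads collected in the last hours of darkness (ZT23). ZT is the time in hours after the lights come on in a daily light and dark cycle. The comparison rests on 6 of the 18 3′ RNA-seq libraries of the series, namely the 3 ZT3 libraries, of flies kept at 18°C, at 25°C or at 29°C, and the 3 ZT23 libraries of the same temperatures, which were chosen by these labels alone and paired by temperature. All flies carried the same genotype and received no agent, and per the study's methods they had spent at least 3 days at their temperature before collection. Age, sex and the number of heads in a library are not given in the sources used here. The 3 libraries of a time point differ in temperature, and nothing says that they came from separate cultures, so the spread between them may be partly technical. The remaining 12 libraries (ZT7, ZT11, ZT15 and ZT19) were used to estimate the spread.

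Dawn is the time at which the fly clock is reset. During the night the proteins PER and TIM accumulate and block the transcription factors CLK and CYC, which drive per, tim, vri and Pdp1. Light then acts through the photoreceptor protein CRY to destroy TIM, and it also wakes the flies, so that genes induced by neuronal activity can respond. The question put to the data was therefore which head transcripts differ between the light and the dark side of dawn, and whether they do so at every temperature.

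In 3′ RNA-seq each read comes from the 3′ end of a polyadenylated transcript, so the level of a transcript does not depend on its length. The deposited unit, called signal here, is a read number that the authors divided by a constant for each library. Estimated depths were 2.92 to 3.00 M reads for ZT3 and 2.91 to 6.62 M reads for ZT23, the 29°C library of ZT23 being the deepest of the series. A signal of 3 reads, taken as the limit of detection, was 3.16 to 3.26 in the ZT3 libraries and 1.545 to 4.12 in the ZT23 libraries (limits of this kind cover counting error only). Photoreceptor markers summed to a signal of 59622 to 98896 at ZT3 and 64471 to 117140 at ZT23, whereas testis and accessory gland markers and ovary markers summed to at most 10.8 in any of the 6 libraries. The 3 genes of yolk proteins took 10.8%, 8.47% and 3.25% of the signal at ZT3, against 17.4%, 7.67% and 5.78% at ZT23, in the order of temperature from low to high that is used for all values below. Gut markers, chiefly trypsins and Jonah proteases, summed to 942 in the 29°C library of ZT3 and to 88.4 to 119 in the other 5. Their part in the results was not tested.

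With the fit across all 18 libraries (limma on log2(signal + 1), with terms for temperature and time point), no transcript row passed an adjusted p of 0.05 between ZT3 and ZT23. Of 8846 rows tested, 0% were called higher and 0% lower, and the lowest adjusted p was 0.202. At an unadjusted p under 0.05, 279 rows (3.15%) were higher and 417 rows (4.71%) were lower at ZT3. The dawn step gave 696 such rows in all, and the 5 other steps between neighbouring time points gave 418 to 547. Rows with the same direction at all 3 temperatures numbered 1016 (11.5%) for higher and 1499 (16.9%) for lower at ZT3. In 315 rows (3.56%) the 3 ZT3 values all lay above the 3 ZT23 values, and in 463 rows (5.23%) they all lay below. The median log2 difference over all rows was -0.044, and it was 0.11 when the values were rescaled to equal library totals, where the unadjusted rows divided into 628 higher and 123 lower. The genes named below were picked by their rank or by their list, and none of them passed the threshold in the fit of all libraries.

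The row with the lowest p was a transcript of CG13606, a gene without a name in the RefSeq table. The row spans 19998350 to 20007142 on the plus strand of chromosome 3R (build dm3), and its 3′ end lies upstream of the end of a longer transcript of the gene. It had a signal of 58.6, 60.9 and 51.7 at ZT3 and of 9.62, 12.1 and 2.57 at ZT23. The ZT3 values lay close together and well above all ZT23 values, with a log2 difference of 2.87 ± 0.58 (SE; adjusted p = 0.202). The longer transcript, which ends at position 20009866, gave 61.8, 66.3 and 46.4 at ZT3 and 59.1, 43.1 and 65.4 at ZT23, so that its groups overlapped. The shorter end thus stood apart between the time points and the longer end did not, although the test of end use within the gene did not pass (adjusted p = 0.118).

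Of the genes induced by light or by neuronal activity, CG14186 and Hr38 were higher at ZT3 at every temperature. CG14186 lies on the minus strand of chromosome 3L (20091184 to 20096927) and had a signal of 66.2, 112 and 92.8 at ZT3 and of 9.62, 26.5 and 33.5 at ZT23, without overlap (log2 difference 2.05 ± 0.48, SE; adjusted p = 0.271). Hr38, a nuclear receptor gene used as a marker of recent neuronal activity, had 47.7, 8.69 and 29.5 at ZT3 and 1.37, 1.104 and 13.9 at ZT23. Its level was higher at ZT3 at every temperature, but the 25°C value of ZT3 lay below the 29°C value of ZT23 (2.53 ± 0.80, SE; adjusted p = 0.461). At ZT23 it was below the level of 3 reads in the 18°C and 25°C libraries. The phosphatase gene puc, a target and inhibitor of JNK signalling, had 60.7, 67.4 and 90.7 at ZT3 and 50.9, 44.2 and 44.3 at ZT23, with all ZT3 values above the ZT23 values (0.62 ± 0.32, SE; adjusted p = 0.659). The AP-1 subunit genes did not share this pattern. The Fos gene kay had 157, 167 and 127 at ZT3 and 102, 120 and 171 at ZT23, and the Jun gene Jra had 85.7, 51.1 and 60.1 at ZT3 and 70.1, 69.6 and 89.6 at ZT23. The transcription factor gene cbt went the other way at every temperature, with 92.2, 192 and 190 at ZT3 and 143, 244 and 242 at ZT23. The remaining rows, CG17778, CG8910 and Atf3, overlapped between the groups, with log2 differences of 0.33, 0.63 and -0.05. Of the 9 tested rows of this list, 2 were higher at an unadjusted p under 0.05 (3.15% of all rows) and none was lower, and the median log2 difference was 0.33, beside -0.044 for all rows.

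Among the other rows that led in the higher direction were genes of stress signalling, extracellular matrix and cofactor synthesis. Sesn, which encodes the stress-responsive TORC1 inhibitor Sestrin, had 176, 143 and 194 at ZT3 and 114, 70.7 and 91.7 at ZT23 (log2 difference 0.90 ± 0.22, SE; adjusted p = 0.288). A transcript of trol, the perlecan of the basement membrane, had 64.0, 51.1 and 62.2 at ZT3 and 13.7, 40.9 and 23.2 at ZT23 (1.28 ± 0.30, SE; adjusted p = 0.271). In both genes the ZT3 values all exceeded the ZT23 values. As in CG13606, the second tested row of trol showed no such separation, with 344, 224 and 191 at ZT3 and 235, 229 and 227 at ZT23. Pu, which encodes GTP cyclohydrolase, the entry enzyme of pteridine and tetrahydrobiopterin synthesis, had 623, 369 and 273 at ZT3 and 385, 245 and 169 at ZT23. It was higher at ZT3 within every temperature, by 0.66 ± 0.16 on the log2 scale (SE; adjusted p = 0.313), while its level was lower the warmer the flies at both times. Nmdmc, a mitochondrial enzyme of folate metabolism, had 388, 308 and 182 at ZT3 and 197, 53.0 and 101 at ZT23 (1.44 ± 0.37, SE; adjusted p = 0.358). The multicopper oxidase gene Mco1 had 11.9, 11.95 and 31.6 at ZT3 and 0, 3.31 and 2.57 at ZT23, and the transcription factor gene apt had 11.9, 29.3 and 41.1 at ZT3 and 0, 5.52 and 5.67 at ZT23. Both were thus near the limit of detection before dawn. The remaining 4 of the 12 leading rows (CG44247, CG34327, CG14132 and blot) had log2 differences of 0.79 to 1.32 and adjusted p values of 0.306 to 0.377.

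**Figure D1:**
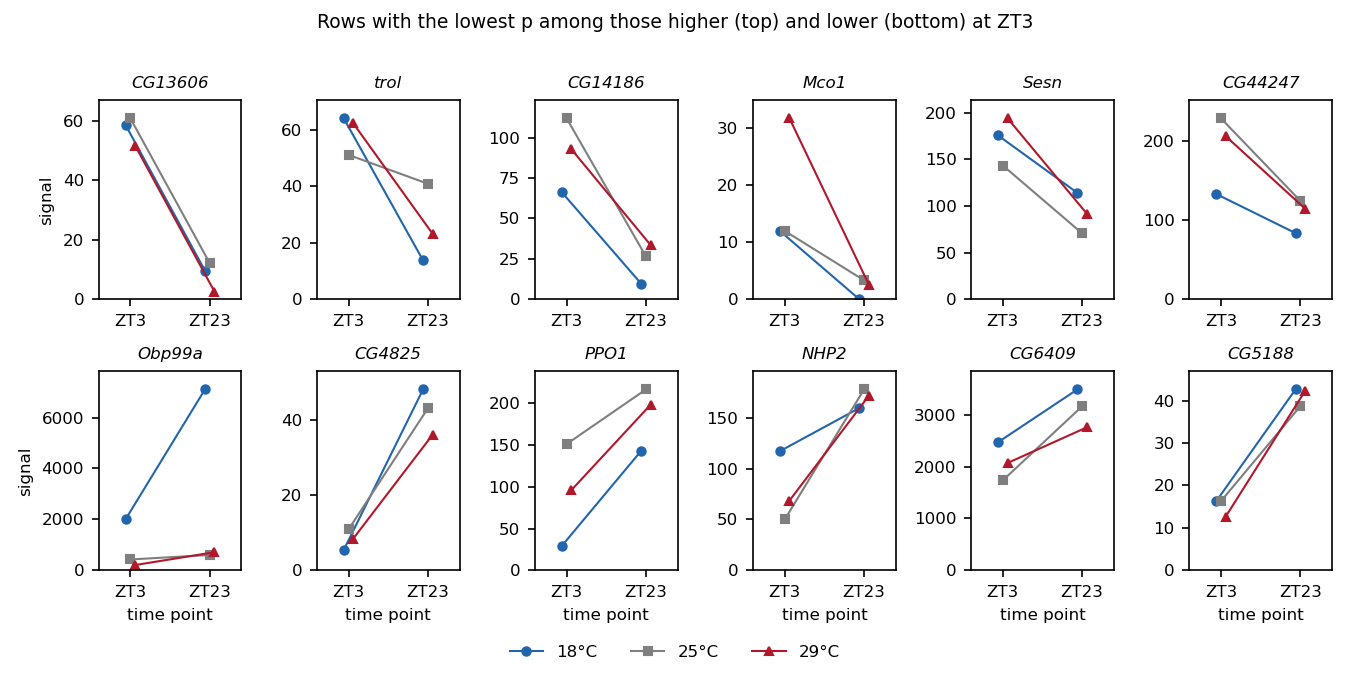
Signal of the 6 rows with the lowest p among those higher at ZT3 at all 3 temperatures (top) and of the 6 among those lower at ZT3 (bottom). Each panel plots signal (vertical axis, from 0) at ZT3 (left) and ZT23 (right), with a line for each temperature and a point for each library. In CG13606, CG14186, NHP2 and CG5188 the 3 values of a time point lie on 1 side of the 3 values of the other, while in Obp99a the 18°C libraries lie above the rest at both times.

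Transcripts that were lower at ZT3 included components of the small nucleolar ribonucleoproteins of the H/ACA class, which guide pseudouridine formation in ribosomal RNA. NHP2 (chromosome 3L, 14794428 to 14795268, minus strand) had 117, 50.0 and 68.5 at ZT3 and 159, 178 and 171 at ZT23, without overlap (log2 difference -1.19 ± 0.26, SE; adjusted p = 0.204). Its partner CG7637, named Nop10 in the RefSeq table, had 45.6, 71.7 and 90.7 at ZT3 and 136, 136 and 119 at ZT23 (-0.95 ± 0.26, SE; adjusted p = 0.412). For both genes the ZT23 values lay close together, whereas the ZT3 values spread about 2-fold. The methylation enzyme Fib of the C/D class had 69.4, 85.8 and 66.4 at ZT3 and 114, 155 and 143 at ZT23, and its partner nop5 had 56.4, 101 and 70.7 at ZT3 and 153, 144 and 92.2 at ZT23. A list of ribosome biogenesis genes, compiled after these values were seen, had 22 tested rows. All 22 had a negative log2 difference (4863 of all 8846 rows), and their median was -0.53. Of the 22, 8 were at an unadjusted p under 0.05 (4.71% of all rows) and 9 were without overlap of the groups (5.23% of all rows). Since the list was compiled after the values were seen, its counts are a description and not a test. The direction of the median was the same at each temperature (-0.52, -0.88 and -0.38). With libraries rescaled to equal totals 19 of the 22 were negative (3271 of all 8846 rows) and the median was -0.38.

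Transcripts of the ribosomal proteins themselves were slightly but almost uniformly lower at ZT3. Their summed signal was 612889, 832244 and 861973 at ZT3 and 770052, 907753 and 1073480 at ZT23. Of 85 tested rows, 82 were lower at ZT3 at all 3 temperatures, and the 3 exceptions were RpL24-like, RpL7-like and RpLP0-like, whose products are paralogues of ribosomal proteins. At an unadjusted p under 0.05, 59 rows (69.4%, beside 4.71% of all rows) were lower and none was higher, and no row passed the adjusted threshold (lowest adjusted p = 0.482, RpL27). The median log2 difference was -0.26, made up of -0.32 at 18°C, -0.12 at 25°C and -0.31 at 29°C. RpL27, for example, had 9009, 13769 and 14149 at ZT3 and 11949, 16430 and 18622 at ZT23, with overlap. Only 4 of the 85 rows were lower without overlap of the groups, beside 5.23% of all rows. RpL19 was among these 4, with 13561, 16860 and 16031 at ZT3 and 17914, 18651 and 20496 at ZT23. The shift was small enough to depend on how libraries were scaled. With libraries rescaled by median of ratios, 34 of the 85 rows remained lower at an unadjusted p under 0.05 (310 of all 8846 rows). The medians were then -0.29, -0.09 and -0.26. With libraries rescaled to equal totals only 1 of the 85 rows was left (123 of all 8846 rows), and the medians were -0.02, -0.08 and -0.16. At 18°C 36 rows were then higher and 49 lower at ZT3. Relative to the median of all rows, the list median lay at -0.21 under each of the 3 scalings. Scaling by a constant for each library moves both medians nearly alike, so this difference could hardly change and is no check on the scaling. Leaving out all 18°C libraries left 7 rows lower at an unadjusted p under 0.05 (316 of all 8846 rows). Leaving out all 29°C libraries left 6 (246 of all 8846 rows). The ZT23 libraries were the high ones. The list median of the difference from ZT23 was -0.26 for ZT3, -0.11 for ZT7, -0.29 for ZT11 and -0.14 for ZT15 and ZT19, all of which share the ZT23 libraries.

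**Figure D2:**
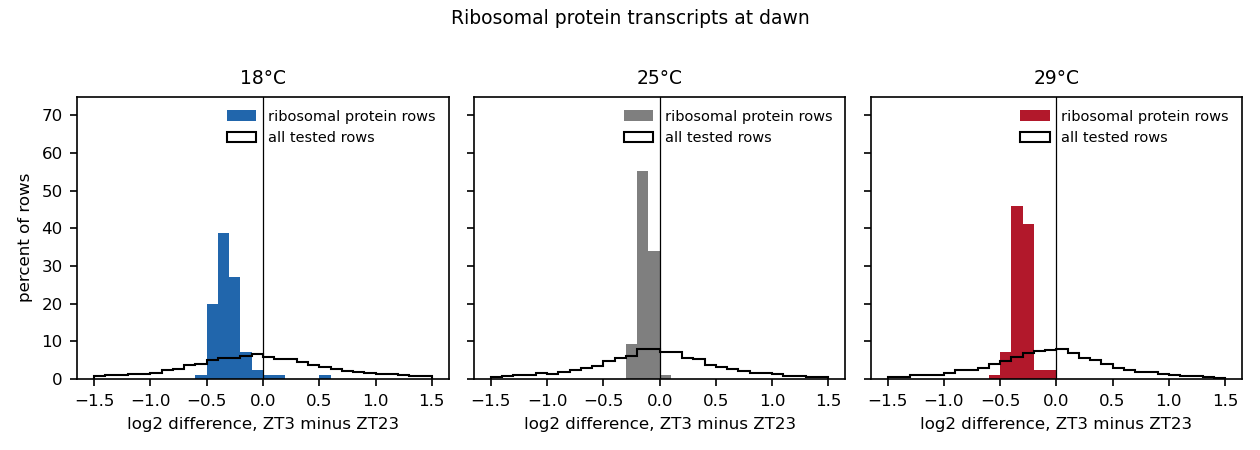
Distribution of the log2 difference ZT3 minus ZT23 (horizontal axis) for the 85 rows of ribosomal proteins (filled bars) and all 8846 tested rows (outline), as percent of rows (vertical axis), with a panel for each temperature. Rows beyond the ends of the axis are not drawn. The ribosomal protein rows form a narrow peak below 0 at each temperature, with medians of -0.32, -0.12 and -0.31, inside a much wider distribution of all rows.

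Other lists of protein synthesis had smaller counts. Of 28 tested rows of translation initiation factors, 3 were lower at an unadjusted p under 0.05 (4.71% of all rows). Their median was -0.16, which became 0.0025 when libraries were rescaled to equal totals. eIF3-S8, a subunit of the initiation factor eIF3, had 324, 347 and 321 at ZT3 and 386, 530 and 570 at ZT23 (log2 difference -0.56 ± 0.16, SE; adjusted p = 0.412). Of 28 rows for protein entry into and folding in the endoplasmic reticulum, 5 were lower (4.71% of all rows), among them the translocon genes Sec61alpha and Sec61beta. The median of -0.24 came largely from 18°C (-0.56, -0.07 and -0.15) and was -0.074 under that rescaling. Both lists were likewise compiled after the values were seen, so their counts are a description only.

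Obp99a and genes of the fat body and of blood cells were also lower at ZT3, most of them chiefly at 18°C and 29°C. The odorant-binding protein gene Obp99a, on chromosome 3R (25497379 to 25498056), had 2008, 426 and 208 at ZT3 and 7105, 604 and 712 at ZT23. It was lower within each temperature, with a log2 difference of -1.37 ± 0.28 (SE; adjusted p = 0.202), although the 18°C value of ZT3 exceeded the ZT23 values of the other temperatures. The fat body gene fit had 1150, 202 and 70.7 at ZT3 and 3827, 215 and 453 at ZT23 (-1.496 ± 0.40, SE; adjusted p = 0.412). Lsp2, a hexamerin that stores amino acids, had 10156, 3261 and 2883 at ZT3 and 55648, 2299 and 8584 at ZT23. Yp1, a yolk protein, had 94985, 92933 and 43857 at ZT3 and 183692, 90863 and 85214 at ZT23. In fit, Lsp2 and Yp1 the ZT3 value was clearly below the ZT23 value at 18°C and 29°C, while the 25°C pair differed little or lay in the other order. Of 10 tested fat body markers 6 were lower at an unadjusted p under 0.05 (4.71% of all rows) and none was higher. With libraries rescaled to equal totals 4 were lower and 1 was higher (123 and 628 of all 8846 rows). Without the 18°C libraries 2 were lower and 1 was higher (316 and 246 of all 8846 rows). The log2 difference was positive in 2 of the 10, and only 2 were lower at all 3 temperatures. The summed signal of these markers was 410610, 314680 and 135800 at ZT3 and 818330, 287150 and 236660 at ZT23. Muscle markers lay the other way, with 5 of 21 tested rows higher and 1 lower at an unadjusted p under 0.05 (3.15% and 4.71% of all rows). The summed signal of the muscle markers was 30359, 22168 and 20034 at ZT3 and 28079, 20099 and 16121 at ZT23. Their part in the results was not tested. In whole heads, fewer fat body cells and less RNA per cell cannot be told apart. PPO1, a prophenoloxidase gene of crystal cells needed for melanization, had 29.3, 151 and 96.0 at ZT3 and 143, 216 and 198 at ZT23 (-1.27 ± 0.28, SE; adjusted p = 0.204). Its relative PPO2 had 72.7, 294 and 200 at ZT3 and 136, 350 and 293 at ZT23. All 6 tested hemocyte markers had a negative log2 difference (4863 of all 8846 rows), with a median of -0.31. With libraries rescaled to equal totals 5 of 6 did (3271 of all 8846 rows).

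The remaining leading rows that were lower at ZT3 included both low and abundant transcripts. CG4825, named Pss (phosphatidylserine synthase) in the RefSeq table, had 5.42, 10.9 and 8.44 at ZT3 and 48.1, 43.1 and 36.0 at ZT23, a log2 difference of -2.27 ± 0.49 (SE; adjusted p = 0.204) without overlap. CG5188 had 16.3, 16.3 and 12.7 at ZT3 and 42.6, 38.6 and 42.2 at ZT23, and the FGF receptor gene htl had 13.0, 40.2 and 14.8 at ZT3 and 41.2, 81.7 and 51.0 at ZT23. Both were separated at every temperature. Among abundant transcripts, CG17108 had 24071, 22796 and 19725 at ZT3 and 35938, 34711 and 29178 at ZT23, and CG6409 had 2471, 1735 and 2070 at ZT3 and 3489, 3164 and 2758 at ZT23. The log2 difference of CG17108 was nearly the same at the 3 temperatures (-0.58, -0.61 and -0.56). CG42369 had 500.0, 762 and 1077 at ZT3 and 617, 1055 and 1533 at ZT23, so that its groups overlapped although it was lower at ZT3 at each temperature (-0.43 ± 0.12, SE; adjusted p = 0.412).

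A further set of genes was higher at ZT3 at 18°C and 29°C, mostly with the 25°C pair close together or in the opposite order. When the 6 libraries of 25°C were left out, 16 rows (0.181%) were higher and 4 rows (0.0452%) were lower at ZT3 at an adjusted p under 0.05 (limma). The 4 lower rows were Obp99a, PPO1, Lsp2 and fit. The higher rows comprised CG13606, trol and 14 genes that are mostly unnamed, several of them for small secreted or cuticle-like proteins, with the cuticle protein gene Cpr100A among them. The lowest adjusted p was that of CG2650, named dyw in the RefSeq table, which lies next to per on the X chromosome. The 3′ ends of the 2 genes overlap on opposite strands, and whether the counting used strand is not given in the sources used here. CG2650 had 134, 18.5 and 405 at ZT3 and 5.50, 48.6 and 13.4 at ZT23, a log2 difference of 4.60 ± 0.48 without the 25°C libraries (SE; adjusted p = 2.89e-05) and 2.62 with them (adjusted p = 0.412). Its 25°C libraries thus lay in the opposite order, and the values of per, given with the clock genes below, did not follow those of CG2650. CG8483 had 370, 10.9 and 321 at ZT3 and 5.50, 12.1 and 6.18 at ZT23, and CG34217 had 482, 7.61 and 404 at ZT3 and 31.6, 13.3 and 4.12 at ZT23. The 25°C values of these genes were low at both times. CG13043 had 1171, 299 and 819 at ZT3 and 169, 548 and 4.12 at ZT23, and the abundant transcript CG5172 had 4373, 2760 and 6031 at ZT3 and 531, 3967 and 55.6 at ZT23. In these 2 genes it was the ZT23 value that was low at 18°C and at 29°C. At 29°C low values were not limited to ZT23. CG13043 had 20.8 and CG5172 had 131 at ZT15, beside 169 and 3277.5 at ZT19. Of the 16 higher rows, 11 were lower at ZT3 in the 25°C pair, beside 4675 of all 8846 rows. None of the 16 passed with all libraries in the fit. A 25°C pair that differs from the others is thus partly built into their choice and is no result about them. CG13606 was an exception, with a log2 difference of 2.23 at 25°C. The result depends on few libraries: leaving out only the 25°C library of ZT3 gave 4 higher rows and 1 lower, leaving out only that of ZT23 gave 2 higher and 3 lower, and leaving out the 18°C or the 29°C libraries in place of those of 25°C gave 0 higher rows.

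**Figure D3:**
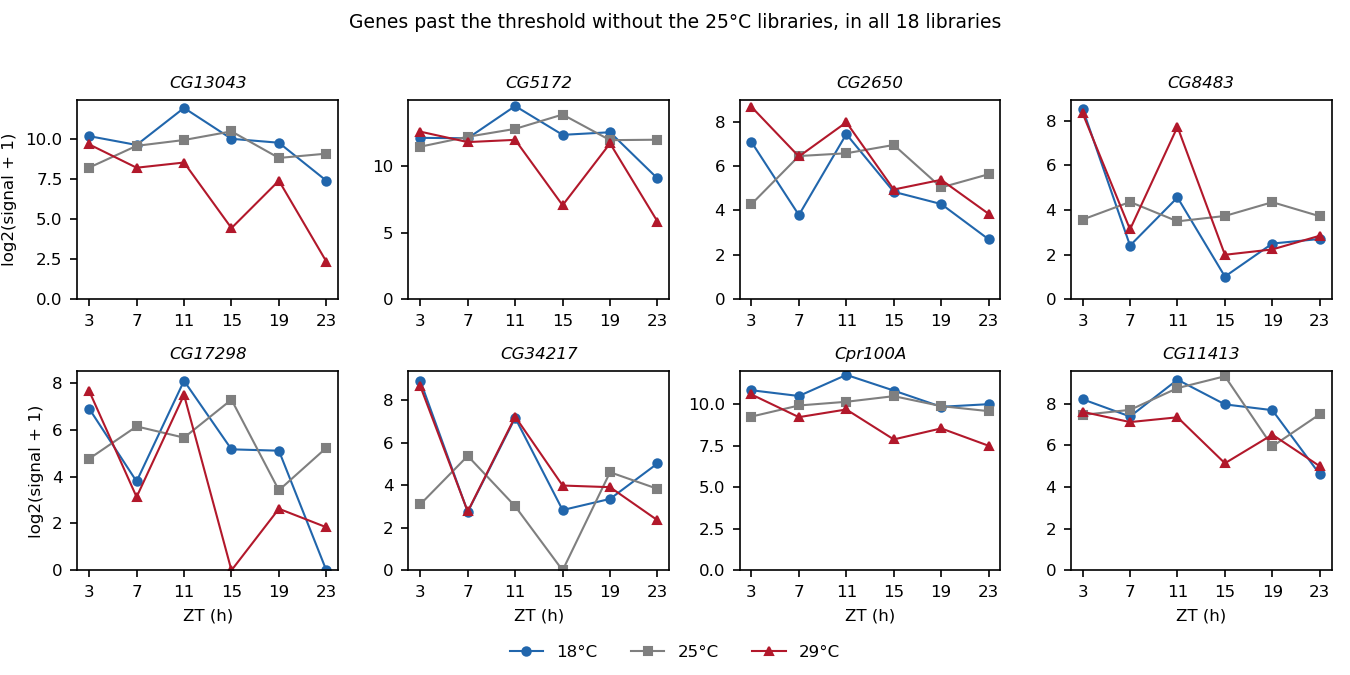
Levels of 8 of the 16 genes that were higher at ZT3 without the 25°C libraries, as log2(signal + 1) on the vertical axis against ZT in hours on the horizontal axis, with 1 point for each of the 18 libraries and a line for each temperature. The ZT3 points of 18°C and 29°C lie above their ZT23 points in every panel, while the 25°C points do not. CG8483 had a signal of 210 at 29°C and ZT11, so that high values were not limited to ZT3.

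A list of glycine-rich and cuticle-like genes was compiled after these values were seen, so its counts are a description and not a test. Of its 15 tested rows, 10 were higher at an unadjusted p under 0.05 and none was lower (3.15% and 4.71% of all rows). The medians of the log2 difference at the 3 temperatures were 1.97, -0.12 and 2.75. Their summed signal was 18664, 5807 and 8799 at ZT3 and 12308, 6703 and 467 at ZT23. Without the 29°C libraries 3 of the 15 remained higher at an unadjusted p under 0.05 (202 of all 8846 rows), and without the 18°C libraries 5 (246 of all 8846 rows). Of the 33 tested rows of named cuticle protein families, 6 were higher and 1 was lower (3.15% and 4.71% of all rows), with a median of 0.66. Their medians at the 3 temperatures were 0.30, -0.08 and 0.78. Without the 29°C libraries 1 was higher and 1 lower (202 and 246 of all 8846 rows), with a median of 0.23. Cpr72Ec, a cuticle protein gene, was an exception to the pattern of temperatures, with 294, 2174 and 4060 at ZT3 and 115, 1132 and 2187 at ZT23. It was about 2-fold higher at ZT3 at every temperature, and with only the 6 dawn libraries in the fit it had the lowest adjusted p of all rows (0.0201, limma).

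Whether the dawn difference varied with temperature was tested in the same fit with 2 added terms. No row passed (0% of 8846 rows; 534 rows, 6.04%, at an unadjusted p under 0.05; lowest adjusted p = 0.168). The row with the lowest p was CG13043. When the shallowest library of the series, that of 25°C at ZT15, was left out, 4 rows passed, namely CG13043 (adjusted p = 0.00427), CG12998 (0.0361), CG2650 (0.0377) and CG13082 (0.0377, limma). CG12998 had 83.5, 44.6 and 198 at ZT3 and 20.6, 48.6 and 0 at ZT23, and CG13082 had 126, 54.3 and 111 at ZT3 and 122, 88.3 and 14.9 at ZT23. In all 4 rows the log2 difference was highest at 29°C and negative at 25°C. The left-out library was far from that of 29°C at ZT15 in these rows. At ZT15 CG13043 had 1042, 1440 and 20.8, CG12998 had 53.2, 238 and 1.49, CG2650 had 27.6, 123 and 29.8, and CG13082 had 104, 118 and 46.1. The spread in this test comes from the other time points, so leaving this library out also took those values out of the spread.

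Of the core clock loop, none of the 10 tested rows of 8 genes reached an unadjusted p under 0.05 between ZT3 and ZT23. The row of tim that ends at the 3′ end shared by tim-L, tim-M and tim-cold (chromosome 2L, 3493986 to 3508119, minus strand) had 115, 63.0 and 141 at ZT3 and 64.6, 218 and 257 at ZT23. It was higher at ZT3 at 18°C and lower at ZT3 at 25°C and 29°C, with a joint log2 difference of -0.60 ± 0.36 (SE; adjusted p = 0.712). The difference between temperatures did not pass its own test (adjusted p = 0.648). The shorter row of tim, whose 3′ end lies at position 3501048, had 27.11, 1.09 and 0 at ZT3 and 5.50, 0 and 1.03 at ZT23, so that among these 6 libraries it exceeded 3 reads only in those of 18°C. At 25°C it exceeded 3 reads at other times, with 5.09 at ZT7, 9.44 at ZT11 and 12.4 at ZT19. The repressor gene per had 36.9, 25.0 and 16.9 at ZT3 and 22.0, 16.6 and 25.7 at ZT23, again in opposite order at 18°C and 29°C. The gene vri, which represses Clk, had 108, 26.08 and 75.9 at ZT3 and 68.7, 36.4 and 66.9 at ZT23. At 18°C the longer tim row, per and vri were higher at ZT3 than at ZT23, whereas cwo was lower and the 2 rows of Pdp1 lay in opposite orders, a description of 1 library at each time.

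Clk itself, the activator, was low at both times, with 14.099, 8.69 and 4.22 at ZT3 and 19.2, 9.94 and 20.1 at ZT23. It was the only tested row of the list with the same direction at all temperatures (log2 difference -0.87 ± 0.95, SE; adjusted p = 0.886). Its partner cyc had 61.8, 66.3 and 79.1 at ZT3 and 38.5, 108 and 85.5 at ZT23. The light receptor gene cry had 60.7, 71.7 and 64.3 at ZT3 and 64.6, 49.7 and 66.9 at ZT23, and the repressor gene cwo had 34.7, 31.5 and 49.6 at ZT3 and 50.9, 16.6 and 23.7 at ZT23. The 2 tested rows of Pdp1 had log2 differences of -0.01 ± 0.25 and -0.04 ± 0.18 (SE). None of these genes was separated between the groups, and the fold changes of per, vri, cyc, cry and both Pdp1 rows were small enough to change sign when single libraries or the scaling were changed. Of 22 tested rows of clock kinases, phosphatases and ligases, only CkIIalpha, the catalytic subunit of casein kinase 2, reached an unadjusted p under 0.05, with 196, 188 and 186 at ZT3 and 335, 218 and 217 at ZT23 (-0.40 ± 0.17, SE; adjusted p = 0.581).

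**Figure D4:**
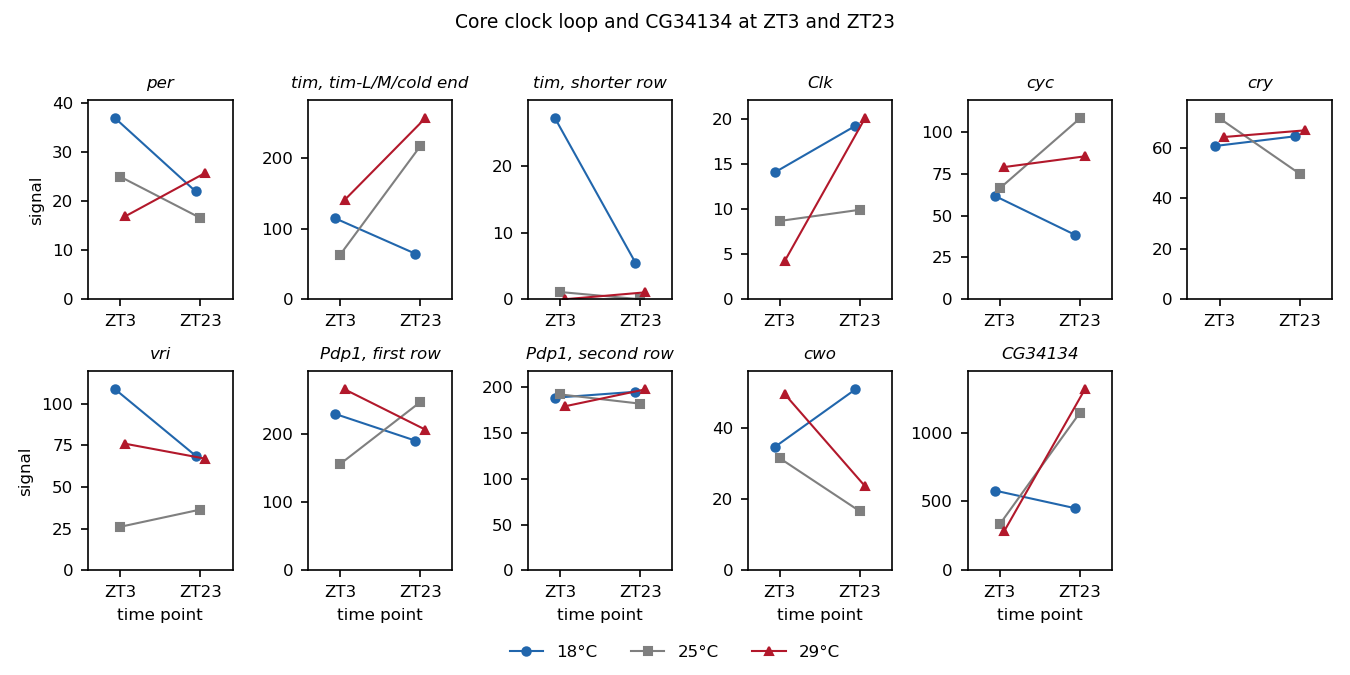
Signal (vertical axis, from 0) of the 10 tested rows of the core clock loop and of CG34134 at ZT3 (left) and ZT23 (right), with a line for each temperature and a point for each library. Lines of different temperatures cross in most panels. In CG34134 the 25°C and 29°C points lie at 334 and 288 at ZT3 and at 1145 and 1313 at ZT23, and the 18°C line slopes the other way.

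Of 28 tested rows of clock output and other cycling head genes, 4 were lower at ZT3 at an unadjusted p under 0.05 and none was higher (4.71% and 3.15% of all rows). CG34134 had 579, 334 and 288 at ZT3 and 451, 1145 and 1313 at ZT23. The ZT23 values at 25°C and 29°C were more than 3-fold above their ZT3 values, while the 18°C pair lay the other way, so that the joint log2 difference was -1.20 ± 0.36 (SE; adjusted p = 0.412). Without the 18°C libraries it was -1.98 and the row passed (adjusted p = 0.0104, limma). The test of a difference between temperatures did not pass (adjusted p = 0.645). Besides CG34134 the 4 rows were CG17386 and the P450 genes Cyp4d21 and Cyp6a21. Cyp4d21 had 83.5, 60.9 and 105 at ZT3 and 146, 150 and 139 at ZT23, without overlap (-0.83 ± 0.25, SE; adjusted p = 0.412).

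The phospholipase C gene norpA, which carries the light signal from rhodopsin to the channels, had 698, 995 and 1107 at ZT3 and 608, 836 and 644 at ZT23. Its second row likewise was higher at ZT3 at each temperature, with a log2 difference of 0.48 ± 0.22 (SE; adjusted p = 0.619). The arrestin gene Arr2, which ends the response of rhodopsin, was lower at ZT3 at each temperature, with 20130, 30408 and 38290 at ZT3 and 22662, 36393 and 50193 at ZT23 (-0.27 ± 0.12, SE; adjusted p = 0.581). Among 40 tested rows of phototransduction genes these 3 were the only ones at an unadjusted p under 0.05, and the median was 0.01. Of all rows 3.15% were higher and 4.71% lower at that p. With libraries rescaled to equal totals 7 of the 40 were higher (628 of all 8846 rows), none was lower, and the median was 0.17. The monoamine list had a median of 0.36 over 15 tested rows, and 0.066 to 0.52 under the alternatives. Only 1 row, Pu, was higher at an unadjusted p under 0.05 and none was lower (3.15% and 4.71% of all rows). The vesicular transporter gene Vmat was higher at ZT3 at every temperature in its 3 tested rows, none of them at that p. In 2 of the 3 the groups did not overlap (3.56% of all rows), for example 161, 165 and 175 at ZT3 and 143, 123 and 102 at ZT23. The tyrosine hydroxylase gene ple had 321, 125 and 255 at ZT3 and 267, 137 and 51.0 at ZT23, a difference that came from the 29°C pair.

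The other lists had 0 to 3 rows in either direction at an unadjusted p under 0.05 (3.15% of all rows higher and 4.71% lower), and for most of them the counts moved with the scaling. With libraries rescaled to equal totals, 628 of all 8846 rows were higher and 123 lower, so the move towards higher was shared by all rows. Without the 18°C libraries 246 of all 8846 rows were higher and 316 lower. Neuropeptide genes gave 1 higher and 2 lower rows of 23, and 3 higher and none lower with libraries rescaled to equal totals. Dsk, the gene of the satiety peptide drosulfakinin, had 60.7, 123 and 136 at ZT3 and 137, 151 and 201 at ZT23, without overlap (log2 difference -0.67 ± 0.26, SE; adjusted p = 0.523). Of 21 heat shock protein and chaperone rows, 3 were lower, namely Hsp60 and the rows of Hsp22 and Hsp67Bb, which carry the same values and count as 1 measurement, and after rescaling 1 was higher and 2 were lower. Hsp22, a small mitochondrial heat shock protein, had 26.0, 13.0 and 74.9 at ZT3 and 39.9, 67.4 and 130 at ZT23 (-1.22 ± 0.37, SE; adjusted p = 0.412). Turandot proteins and UDP-glucosyltransferases had no row at an unadjusted p under 0.05 under either scaling. Genes of carbohydrate metabolism had none of 29 as deposited, but 8 higher and none lower after rescaling and 6 higher without the 18°C libraries. Genes of lipid synthesis and storage had 1 lower row of 18 as deposited, 3 higher and 1 lower after rescaling, and 5 higher and none lower without the 18°C libraries. Antimicrobial peptides had 1 lower row of 21, and 2 higher and none lower after rescaling, and insulin and feeding genes had 1 lower row of 21, and 1 higher after rescaling. Cytochrome P450 genes gave 3 lower rows of 51, and 2 higher and 1 lower after rescaling. Glutathione S-transferases gave 2 lower rows of 26, and 2 higher after rescaling, and odorant-binding proteins gave 3 lower rows of 27, and 1 in each direction after rescaling.

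**Figure D5:**
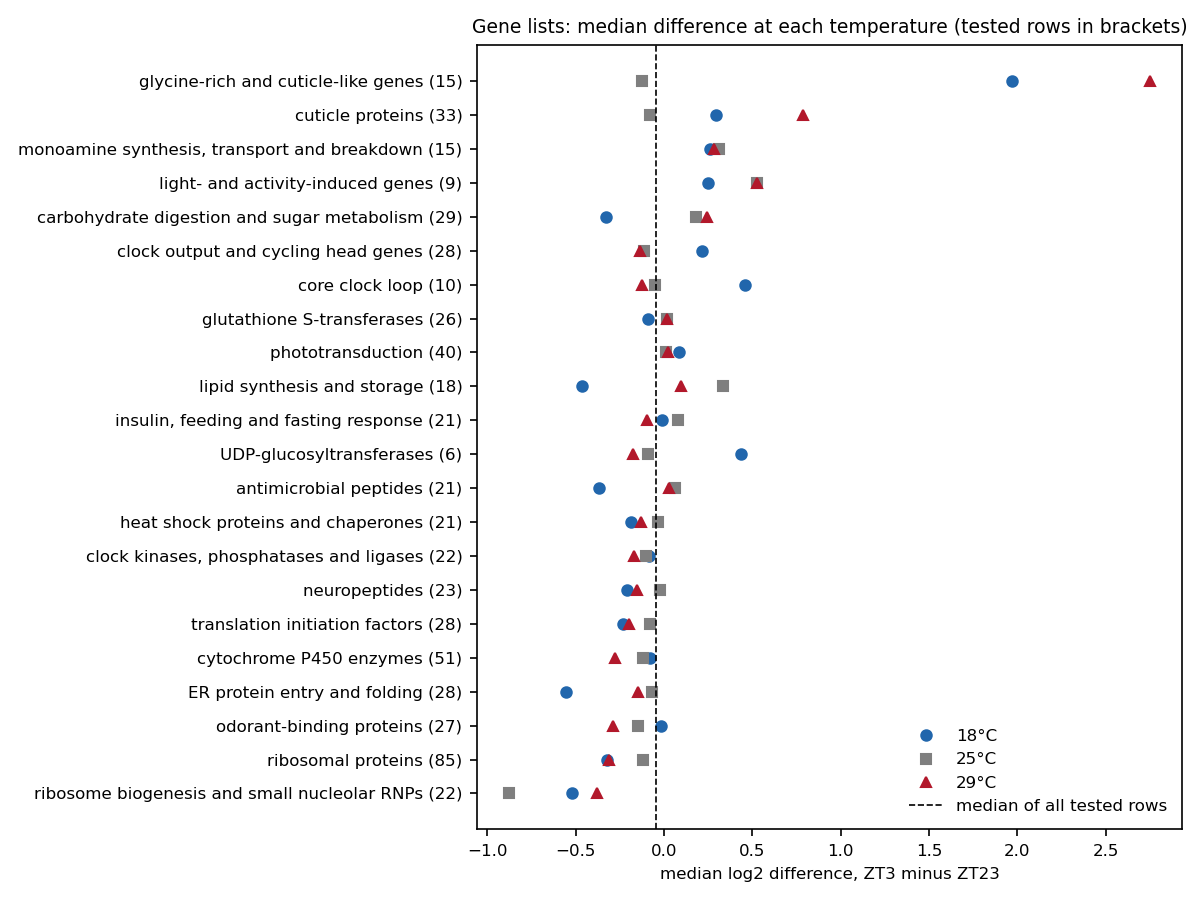
Median log2 difference ZT3 minus ZT23 (horizontal axis) of 22 gene lists (vertical axis, number of tested rows in brackets), shown for 18°C (circles), 25°C (squares) and 29°C (triangles). The dashed line marks the median of all tested rows, -0.044. The glycine-rich and cuticle-like list lies at 1.97 and 2.75 at 18°C and 29°C and at -0.12 at 25°C. The lists of ribosome biogenesis and ribosomal proteins lie left of the line at every temperature. The glycine-rich and cuticle-like, ribosome biogenesis, translation initiation factor and endoplasmic reticulum (ER) lists were compiled after the values were seen, and their positions are no test.

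Use of alternative 3′ ends passed the test between ZT3 and ZT23 in none of 497 genes with at least 2 tested rows (diffSplice of limma, 0%; 23 genes, 4.63%, at an unadjusted p under 0.05). The lowest p belonged to Syp, an RNA-binding protein of the hnRNP class, and to CG13606 (adjusted p = 0.118 for both). In Syp the low row NM_001104379 had 15.2, 22.8 and 18.98 at ZT3 and 1.37, 8.83 and 5.67 at ZT23, without overlap, while the main row had 225, 228 and 313 at ZT3 and 195, 221 and 232 at ZT23. The next genes were CG42676, trol and CG10077. In each of these 3, as in CG13606, the row with the larger difference was higher at ZT3. In CG42676 and CG10077 that row had 0 in the 18°C library of ZT23. At 29°C it had 6.33 and 15.8 at ZT3 and 5.15 and 11.8 at ZT23. The Syp value of 1.37 was likewise below 3 reads. The lowest adjusted p was 0.589 with only the 6 dawn libraries, and 0.663 with rows of at least 10 in each of the 6 (diffSplice).

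The direction of the dawn difference was also read in the 6 libraries of ZT7 and ZT19, which lie within the light and the dark phase and do not enter the ZT3 and ZT23 values. Of the 279 rows that were higher at ZT3 at an unadjusted p under 0.05, 183 (65.6%) were also higher at ZT7 than at ZT19, beside 51.2% of all tested rows. Of the 417 rows that were lower at ZT3, 212 (50.8%) were lower at ZT7 than at ZT19, beside 48.8% of all. Among the genes named above, Hr38 was a case of this kind, with 22.9, 22.9 and 14.5 at ZT7 and 1.85, 0 and 1.48 at ZT19. All 3 ZT19 libraries and the ZT23 libraries of 18°C and 25°C were below the level of 3 reads, and all ZT3 and ZT7 libraries were above it.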

How the data were processed

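The samples were 18 libraries of polyadenylated RNA from heads of wild-type flies (3 temperatures, 6 time points, 1 library each), sequenced from the 3′ end. Per the submitters' processing notes, Bowtie2, TopHat and Cufflinks were used with build dm3, and versions are not given in the sources used here. The deposited table holds signal: for each transcript the authors divided its reads by 1 constant for each library, and 97.0% to 97.7% of the non-zero values were whole multiples of the worth of 1 read, within 0.01 of a read. Estimated depth was 1.24 to 6.62 M reads (median 3.11). The time point called 19 h here is 18 h in the sample titles.

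Of 29561 deposited rows, 667 had no values. Repeats of 1 gene with identical values were counted once and rows within 10% of each other were merged, which left 16491. The 8846 rows (8200 genes) with a signal of at least 10 in at least 6 libraries were tested, of which 144 share their values with another gene. R 4.3.3 and limma 3.58.1 were used on log2(signal + 1) with an intensity trend and additive terms for temperature and time point. P values were adjusted by Benjamini and Hochberg, with a threshold of 0.05. Log2 differences are on the log2(signal + 1) scale, which understates changes of low transcripts, and are ZT3 minus ZT23. An exact paired test of 3 pairs cannot give a p below 0.25 and was not used. P values measure the spread between these libraries only. The fit was also run on simulated read numbers with known changes. Rows were drawn independently there, without shifts shared by many rows of a library, so that run does not bear on such shifts in gene lists.

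The rule was to name rows past the threshold with the same sign at all temperatures, and the core clock loop. No row passed, so the 12 rows with the lowest p in each direction with the same sign at all temperatures, the light- and activity-induced list, CG34134 and other members of lists at an unadjusted p under 0.05 were named after their values were seen. Members and lists were chosen with earlier results of these data known. The closing section gives the alternatives. Per-sample columns of other samples numbered 0. Sequences and promoter motifs were not analysed here.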

Additional observations from a re-analysis of the deposited data

How the results depend on the processing

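Of 43 named log2 differences under 20 alternatives, 824 of 851 values had the direction reported above, and 35 results had it under every alternative that was run. No row was higher or lower at the adjusted threshold, apart from these alternatives: only the 6 dawn libraries in the fit (1 higher, Cpr72Ec, and 1 lower, Obp99a, adjusted p = 0.0419), no intensity trend (1 lower, CG5188, adjusted p = 0.0404), and left-out libraries (0 to 16 higher and 0 to 4 lower). Those numbers rest on 25°C: without its libraries Obp99a, fit, PPO1, CG13606 and trol passed, and without the ZT3 library alone also CG34327 (adjusted p = 0.0438). Without the 18°C libraries 1 row passed, CG34134. Rows at an unadjusted p under 0.05 numbered 696, and 448 to 804 with libraries left out, 334 without the replicate block by temperature and 1443 of 18980 with repeated rows kept. The test by temperature gave 4 rows without the 25°C library of ZT15 and 0 otherwise. Scaling by library size gave 628 higher and 123 lower rows, median of ratios 342 and 310, and the deposited scaling 279 and 417. The cause was not tested.

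Under library-size scaling the log2 difference of cyc was 0.11, of the Pdp1 rows NM_001274618 and NM_080093 0.15 and 0.12, and of Atf3 0.11. Under median of ratios the Pdp1 rows were at 0.027 and 0.00028. With libraries left out, the range was -0.016 to 0.64 for per, -0.31 to 0.63 for vri, -0.50 to 0.29 for cyc, -0.097 to 0.26 for cry, -0.28 to 0.34 and -0.15 to 0.053 for the Pdp1 rows, -0.15 to 0.031 for Atf3 and -0.60 to 0.041 for Jra. A count test on whole reads was not run because reads could not be recovered for every library, and promoter motifs were not run. Rows near 3 reads, such as the shorter row of tim, Mco1 and Hr38 at ZT23, are limited by depth.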
